A study of Mus musculus with 4 samples.

Results

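The genes described here are 10 epithelial and keratinocyte genes, followed through 4 RNA-seq libraries of mouse embryonic fibroblasts (MEFs). They are Krt8, Krt18, Krt19, Krt14, Krt5, Epcam, Cdh1, Krtdap, Sprr1a and Sprr2b, out of 55487 genes in the count table. They were chosen by name as genes that mark epithelia, and Krtdap and Sprr2b also because their counts differed between PEDF-treated and control cells, so values of these 2 genes in that comparison are a description with no test. The study asked how the transcriptome of MEFs responds to pigment epithelium-derived factor (PEDF), a secreted glycoprotein of the serpin family. Wild-type C57BL/6J MEFs (passage 2 by the labels, passage 3 by the study's text) were left untreated (control) or received PEDF at 100 ng/mL for 24 h. Each treatment has 2 libraries, 1 in each of 2 experiments, and each experiment used its own embryos. No library carries a transgene or a deletion. MEFs are outgrowths of dissected embryo tissue and not a purified cell type, so cells of other tissues can be carried along. The 2 libraries of an experiment share their embryos, so p-values measure the spread between these 4 libraries only.

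Keratins build the intermediate filaments of epithelial cells, and each filament pairs a type I with a type II keratin. Krt8 pairs with Krt18 in simple epithelia, where Krt19 is a further type I partner, and Krt5 pairs with Krt14 in the basal layer of stratified epithelia such as the epidermis. Epcam and Cdh1 (E-cadherin) hold epithelial cells together, and Krtdap and the small proline-rich proteins Sprr1a and Sprr2b belong to the late program of keratinocytes, the latter as precursors of the cornified envelope. Fibroblasts build their intermediate filaments mainly from vimentin (Vim).

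The libraries held between 14722848 and 18144640 counts assigned to genes. CPM below are counts scaled by TMM library size, and TPM are the length-scaled values the authors deposited, used wherever levels of different genes are compared. Xist, which is transcribed in female cells, had 39 counts in control 1, 9 in PEDF 1, 3479 in control 2 and 2332 in PEDF 2. Both libraries of experiment 1 were thus low and both of experiment 2 high, and 4 Y-linked genes were lower in experiment 2, so the sex makeup of the embryos differed between the experiments. These sex-linked genes were looked up after their values were seen.

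The fibroblast label held against its markers. Vim averaged 2067 TPM and Col1a1, a chain of type I collagen, 8653 TPM, and the 16 fibroblast and mesenchymal genes summed to between 15430 and 20670 TPM per library. The 5 lists of epithelial genes, with 123 genes found in the table, summed to between 626.8 and 656.3 TPM. Of those 123 genes 26 had no count in any library and a further 22 had fewer than 10 counts in total. Epithelial genes were therefore a small fraction of the RNA in every library. In bulk RNA, fewer cells of a type and less RNA per cell cannot be told apart.

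**Figure D1:**
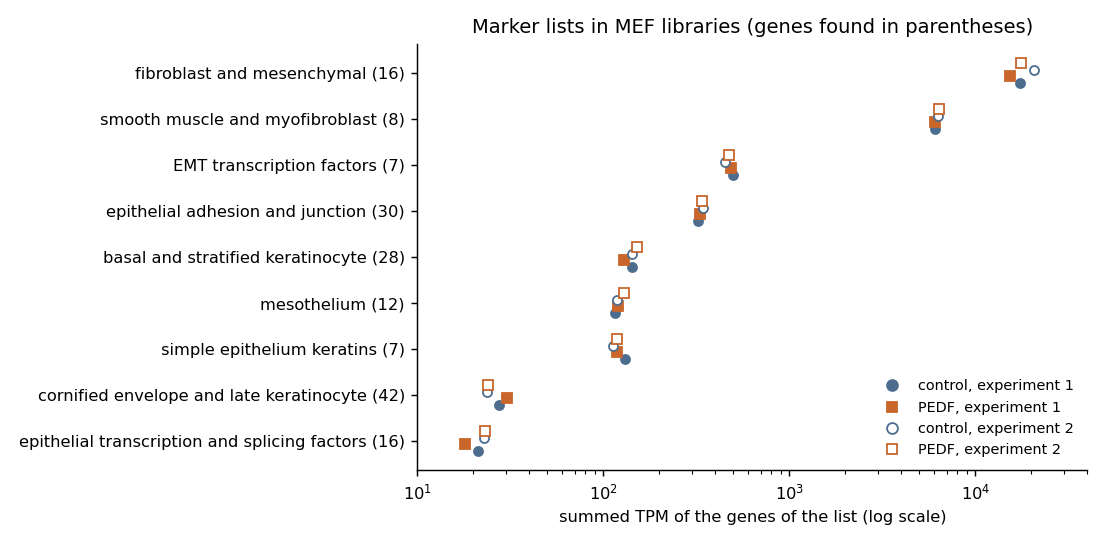
Summed TPM of each marker list on a log axis, with 1 point per library, circles for control, squares for PEDF, filled for experiment 1 and open for experiment 2. The fibroblast list lies between 15430 and 20670 TPM, and the simple keratins lie between 112.7 and 130.5 TPM.

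Mean TPM over the 4 libraries ordered the 10 genes as Krt18, Krt19, Krt8, Sprr1a, Cdh1, Krt14, Epcam, Krtdap, Sprr2b and Krt5. Krt18 stood at 47.9 TPM, Krt19 at 34.2 TPM and Krt8 at 27.1 TPM, while the other 7 genes ranged from 4.05 TPM for Sprr1a to 0.189 TPM for Krt5. Along this order the ranges over libraries were separate between Krt18 and Krt19, between Krt8 and Sprr1a, and between Krt14 and Epcam, and the other neighbours overlapped. The last separation was 1.385 TPM for Krt14 in control 2 (15 counts) against 1.366 TPM for Epcam in PEDF 1 (17 counts). Counts this low leave the order of these 2 genes uncertain. Among 16957 protein-coding genes with a TPM above 0, 16.6% had a higher mean TPM than Krt18, 27.5% than Krt8 and 86.7% than Krt5. The simple keratins thus stood at middle to high levels among expressed genes and the basal keratin Krt5 near the bottom. Vim exceeded Krt18 by 43.2-fold, Krt8 by 76.3-fold and Krt5 by 10930-fold in mean TPM.

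**Figure D2:**
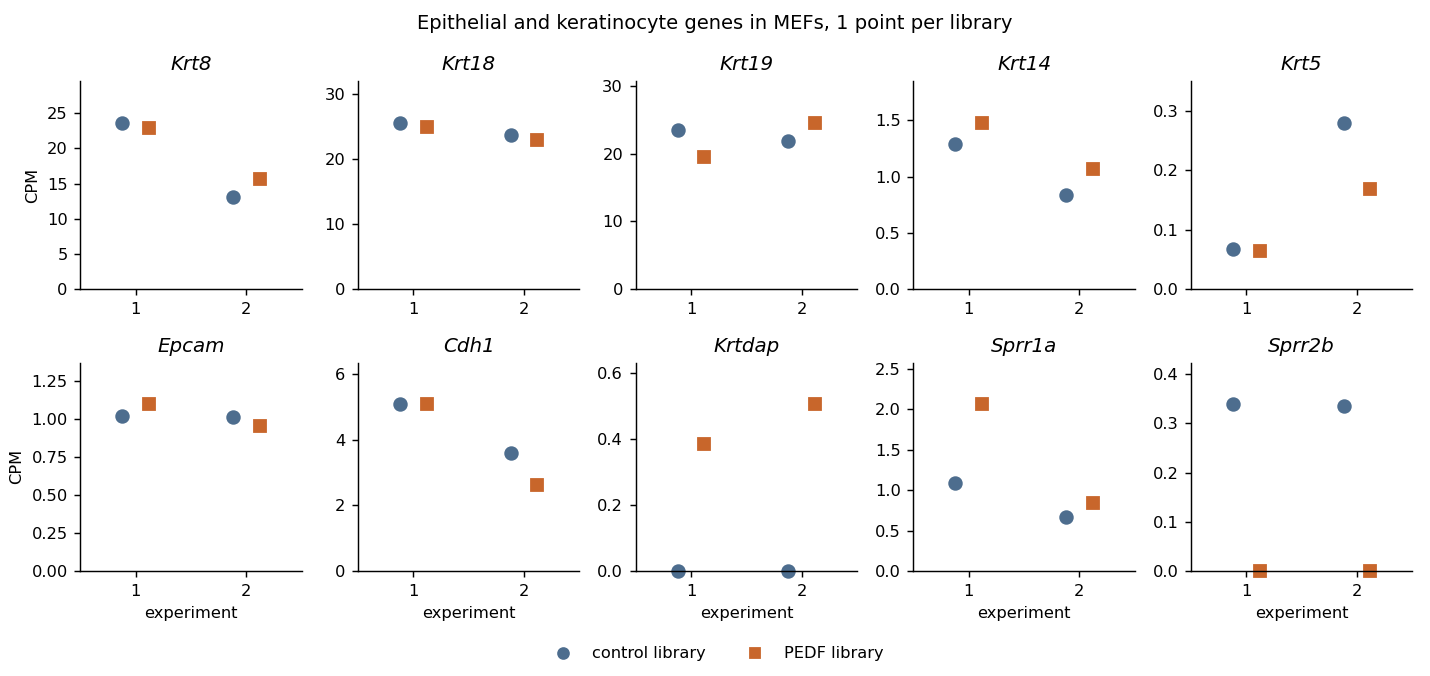
CPM of the 10 genes in each library, by experiment, with circles for control and squares for PEDF and each vertical axis starting at 0. Krt8 was between 22.8 and 23.7 CPM in experiment 1 and between 13.1 and 15.7 CPM in experiment 2, while Krt18 stayed between 23.0 and 25.6 CPM.

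Krt8, the type II keratin of simple epithelia (ENSMUSG00000049382, GRCm38 chr15:101996698-102004482, minus strand), had 349 counts in control 1, 355 in PEDF 1, 233 in control 2 and 280 in PEDF 2. These are 23.7, 22.8, 13.1 and 15.7 CPM. Both libraries of experiment 1 were above both of experiment 2, while the control and PEDF groups overlapped. Gm36026, a lincRNA on the opposite strand that overlaps Krt8, had between 28 and 40 counts, and the strand setting of the counting is not given in the sources used here, so part of either count may belong to the other.

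Krt18, the type I partner of Krt8 (ENSMUSG00000023043, chr15:102028180-102032027, plus strand), starts 23698 bp beyond the end of Krt8. Its counts were 378 in control 1, 388 in PEDF 1, 424 in control 2 and 409 in PEDF 2, or 25.6, 25.0, 23.8 and 23.0 CPM. The 4 CPM values lay close together, and control and PEDF overlapped. Krt19, a type I keratin (ENSMUSG00000020911, chr11:100140810-100148665, minus strand), had 346, 304, 391 and 438 counts in the same order, or 23.5, 19.6, 21.9 and 24.6 CPM. PEDF 1 was lowest and PEDF 2 highest, so the PEDF libraries enclosed the controls.

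The basal pair was far lower than the simple keratins in TPM. Krt14 (ENSMUSG00000045545, chr11:100203162-100207548, minus strand), the type I keratin of basal keratinocytes, had 19 counts in control 1, 23 in PEDF 1, 15 in control 2 and 19 in PEDF 2, or 1.29, 1.48, 0.841 and 1.07 CPM. Both libraries of experiment 1 were the higher ones. Krt5 (ENSMUSG00000061527, chr15:101707070-101712898, minus strand), its type II partner, had 1, 1, 5 and 3 counts, so that in experiment 1 it was under the floor of 3 counts used here as the limit of detection. Intervals and floors given here cover counting error only.

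Of the adhesion genes, Epcam (ENSMUSG00000045394, chr17:87635979-87651129, plus strand) had 15 counts in control 1, 17 in PEDF 1, 18 in control 2 and 17 in PEDF 2, or 1.02, 1.09, 1.01 and 0.954 CPM. The 4 libraries were nearly level. Cdh1 (ENSMUSG00000000303, chr8:106603351-106670246, plus strand) had 75, 79, 64 and 47 counts in the same order, or 5.08, 5.08, 3.59 and 2.64 CPM. Both libraries of experiment 1 were above both of experiment 2, and control and PEDF overlapped.

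The 3 late keratinocyte genes among the 10 had few counts. Krtdap, a secreted protein of differentiating keratinocytes (ENSMUSG00000074199, chr7:30787896-30791097, plus strand), had 0 counts in control 1, 6 in PEDF 1, 0 in control 2 and 9 in PEDF 2. Both PEDF libraries held counts and neither control did, which is what chose the gene. Relative to library size, the Krtdap counts with PEDF were 1.90 times a floor of 3 counts in the control library in experiment 1. In experiment 2 they were 3.004 times that floor. Sprr2b (ENSMUSG00000050092, chr3:92316620-92318085, plus strand) had 5 counts in control 1, 0 in PEDF 1, 6 in control 2 and 0 in PEDF 2. Its pattern was the opposite one, and again it chose the gene. With the same floor set in the PEDF library, the Sprr2b control counts were 1.76 times the floor in experiment 1 and 2.00 times in experiment 2. These ratios leave out the counting error of the 5 to 9 counts above the floor, so they are not lower bounds of a change. Just inside the filter of 10 counts in total, where both genes lie, 1110 genes had 10 to 15 counts, and of these 4 (0.36%) had no count in either control library and 8 (0.721%) had none in either PEDF library. Over all genes tested these shares were 0.0258% and 0.0464%. Sprr1a (ENSMUSG00000050359, chr3:92483952-92485895, minus strand) had 16, 32, 12 and 15 counts, or 1.08, 2.06, 0.673 and 0.842 CPM. PEDF 1 stood above the other 3 libraries, and PEDF 2 lay below control 1.

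Genes around these 2 loci were read in the same libraries. Of 17 Sprr genes in the table, 6 had any count and 3 had at least 10, which were Sprr2k with 17, 17, 19 and 15 counts, Sprr1a and Sprr2b. The other 3 were Sprr2a1 with 0, 2, 0 and 1 counts, Sprr2g with 1, 0, 0 and 0, and Sprr3 with 1, 0, 0 and 1. Sprr2 genes are near-identical copies, so a few reads of 1 copy can be assigned to another or dropped, and the Sprr2b counts are uncertain for that reason. Within 100 kb of Krtdap, its keratinocyte neighbour Sbsn (suprabasin) had 28, 40, 44 and 40 counts with a log2 fold change of 0.13 for PEDF (edgeR adjusted p = 0.948), and Dmkn (dermokine) had 4, 0, 0 and 0. Neither neighbour had the pattern of Krtdap in these counts. Tmem147 had 642, 708, 759 and 857 counts (log2 fold change 0.12, adjusted p = 0.792), Gapdhs 34, 39, 36 and 37, the antisense gene Tmem147os 32, 39, 39 and 35, and Gm26935, also antisense, 4, 3, 5 and 9. Atp4a, Cd22, Ffar2, D7Ertd128e and Gm29439 had at most 3 counts in any library. Within 100 kb of Sprr2b, beside Sprr2a1 and Sprr2g, the pseudogenes Gm5850 and Gm5851 had 3, 0, 2 and 4 and 0, 1, 1 and 0 counts, and none of these was tested.

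RefSeq promoters of 8 of the 10 genes were matched by symbol, and those of Krt19 and Cdh1 were not analysed here. The 8 were searched over the 200 bases before the RefSeq start (build GRCm38.p6) for TGANTCA, the consensus of the AP-1 factors that are known regulators of late keratinocyte genes, and this motif reads the same on both strands. It occurred in 3 of the 8, the promoters of Krtdap, Sprr1a and Sprr2b, and in 5.48% of 32851 promoters of the same length. These 3 are shown because they are the late keratinocyte genes of the set, 5′ to 3′ on the strand of the gene, with the motif in capitals.
Krtdap, chr7:30787705-30787904, plus strand: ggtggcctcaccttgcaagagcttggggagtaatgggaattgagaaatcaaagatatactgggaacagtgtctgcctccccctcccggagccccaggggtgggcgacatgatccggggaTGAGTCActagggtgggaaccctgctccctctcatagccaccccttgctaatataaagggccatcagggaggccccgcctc
Sprr1a, chr3:92485882-92486081, minus strand: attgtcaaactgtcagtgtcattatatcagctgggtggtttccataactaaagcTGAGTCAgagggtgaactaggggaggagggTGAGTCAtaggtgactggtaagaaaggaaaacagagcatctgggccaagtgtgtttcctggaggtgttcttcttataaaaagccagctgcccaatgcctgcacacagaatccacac
Sprr2b, chr3:92316505-92316704, plus strand: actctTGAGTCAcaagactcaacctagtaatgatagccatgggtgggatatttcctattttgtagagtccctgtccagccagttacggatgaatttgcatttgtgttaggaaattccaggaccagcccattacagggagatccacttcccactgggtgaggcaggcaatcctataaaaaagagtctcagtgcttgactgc
The match began 81 bases before the start in Krtdap, 146 and 116 bases before it in Sprr1a, and 195 bases before it in Sprr2b. A match describes letters and not a bound site. The RefSeq starts differed from the gene coordinates given above. By those, the Krt14 window (chr11:100206031-100206230) lay wholly within its gene, so its lack of a match does not describe the bases before that gene. The windows of Krt8, Krt18, Krtdap, Sprr1a and Sprr2b ran in part into their genes.

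With PEDF, none of the 8 genes that the contrast did not choose differed from control in edgeR's quasi-likelihood test, and 0 of 8 had an unadjusted p under 0.05, where 6.88% of all genes had. Over all 19384 genes tested, 0.00516% were called at an adjusted p under 0.05. Krt18 had a log2 fold change of -0.04 (SE 0.11, adjusted p = 0.95), Krt19 of -0.03 (SE 0.13, adjusted p = 0.969) and Krt8 of 0.08 (SE 0.39, adjusted p = 0.978). The 2 control libraries averaged 24.7 ± 1.30 CPM for Krt18 (SD, n = 2) and the PEDF libraries 24.0 ± 1.42. These SD include the difference between experiments. Within experiments Krt18 was slightly lower with PEDF both times, 24.96 against 25.61 and 22.96 against 23.77 CPM. Among the lower genes, Sprr1a had the highest log2 fold change, 0.72 (SE 0.52, adjusted p = 0.798), and Krt5 the lowest, -0.57 (SE 1.20, adjusted p = 0.942). The log2 fold changes of Krt14, Epcam and Cdh1 were 0.26, 0.01 and -0.17 with SE of 0.46, 0.48 and 0.30. With the experiment as a block 3.75% of all genes were called (1.67% higher, 2.07% lower) and again none of the 8, with adjusted p from 0.599 to 0.995. The SE of Krt8 was 0.12 in that fit, against 0.39 without the block. When 1 library was left out, the sign of 7 of these 8 fold changes turned in at least 1 fit, and Krt5 had no value there because the filter on counts removed it. Comparing group ranges, 18.9% of tested genes were higher in both PEDF libraries than in both controls and 18.4% were lower, and among the 10 genes only Krtdap and Sprr2b did not overlap.

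Within an experiment the ratio of PEDF to control carries an exact (Clopper-Pearson) 95% counting interval, which sets what size of change the depth could show. For Krt18 the log2 ratio was -0.04 (-0.25 to 0.17) in experiment 1 and -0.05 (-0.25 to 0.15) in experiment 2. For Krt8 it was -0.05 (-0.27 to 0.17) and 0.27 (0.01 to 0.52), and for Krt19 -0.26 (-0.49 to -0.04) and 0.17 (-0.03 to 0.37). Krt8 and Krt19 were thus on opposite sides of 0 in the 2 experiments. Cdh1 gave -0.44 (-1.02 to 0.12) in experiment 2, and Epcam and Krt14 had intervals reaching beyond 0.9 on the log2 scale in both experiments. Sprr1a gave 0.93 (0.02 to 1.89) in experiment 1 and 0.32 (-0.87 to 1.55) in experiment 2. Of 16 such intervals, 3 excluded 0, those of Krt8 in experiment 2 and of Krt19 and Sprr1a in experiment 1. Of all tested genes with a count in both libraries, 19.9% excluded 0 in experiment 1 and 25.3% in experiment 2, so 3 of 16 was near the background.

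**Figure D3:**
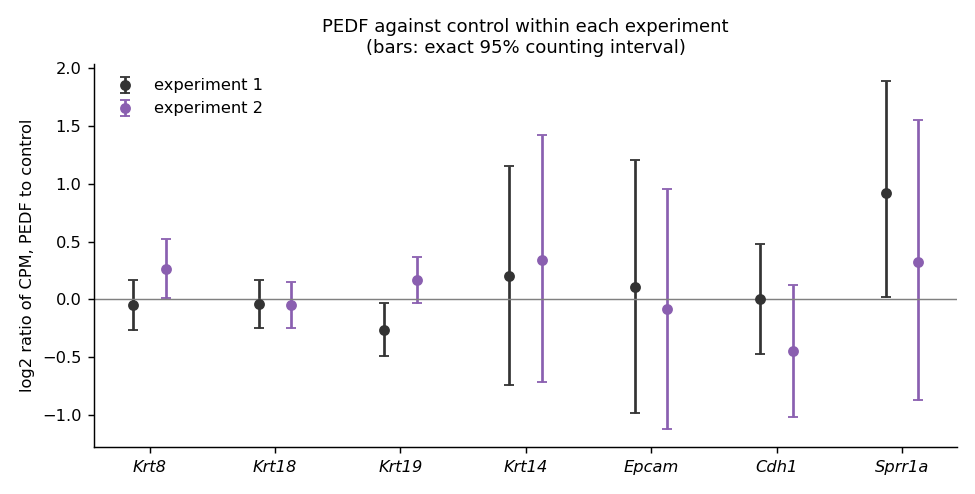
Log2 ratio of PEDF to control CPM within experiment 1 (black) and experiment 2 (purple) for 7 genes, with exact 95% counting intervals as bars and a line at 0. Krt5 is left out because its intervals run from -6.37 to 6.22 in experiment 1. Krt18 sits at -0.04 and -0.05, while the intervals of Krt14, Epcam and Sprr1a are wide.

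Between experiments, a comparison that the rule for the genes does not name, Krt8 fell and Krt18 did not pass the test. Krt8 averaged 23.2 ± 0.572 CPM in experiment 1 and 14.4 ± 1.88 CPM in experiment 2 (SD, n = 2 each), a log2 fold change of -0.69 (SE 0.12, edgeR adjusted p = 4.96e-07). The 2 libraries of a side are a control and a PEDF culture of the same embryos, so they do not measure the spread between sets of embryos. Krt8 was 1 of the 10 genes called, where 4.49% of all genes were called, 2.3% higher and 2.19% lower. Krt18 had a log2 fold change of -0.11 (SE 0.10, adjusted p = 0.688) and Krt19 of 0.12 (SE 0.10, adjusted p = 0.702). Cdh1 averaged 5.08 CPM against 3.11 ± 0.672 CPM, a log2 fold change of -0.71 (SE 0.23) whose adjusted p of 0.0519 missed the threshold. Sprr1a had a log2 fold change of -1.02 (SE 0.49, adjusted p = 0.29), Krt14 of -0.54 (SE 0.48, adjusted p = 0.693), Epcam of -0.10 (SE 0.52, adjusted p = 0.965) and Krt5 of 1.64 (SE 1.45, adjusted p = 0.69). Krtdap and Sprr2b had 0.37 and -0.01 with SE of 1.27 and 1.41. In CPM the ranges of 6 of the 10 genes were wholly lower in experiment 2 and that of 1, Krt5, wholly higher, where 18.4% of all genes were lower and 19.1% higher in this way. In TPM 4 were wholly lower, as Krt18 and Epcam then overlapped. Without control 2 the Krt8 log2 fold change was -0.56 with an adjusted p of 0.084, and without the treatment term the adjusted p was 0.0828. In limma it was 0.286 and 0.316 with a pseudocount of 1 and 0.1, and DESeq2 gave no adjusted p for Krt8.

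The ratio of Krt8 to Krt18 in TPM, in which Krt18 was nearly level, restates the Krt8 difference. It was 0.678 in control 1, 0.672 in PEDF 1, 0.403 in control 2 and 0.502 in PEDF 2. Both libraries of experiment 1 were above both of experiment 2, with means of 0.675 ± 0.00432 and 0.453 ± 0.0701 (SD, n = 2 each). The genes whose pattern over the 4 libraries lay closest to that of Krt8, by root mean square difference of centred log2 CPM over 10721 genes, were Tgm2 (0.0557), Clu (0.0644) and Six2 (0.0682). Krt18 ranked 2048 with a difference of 0.310.

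Genes of hepatoblasts, the epithelial precursors of the fetal liver, were read beside Krt8, from a list of 10 drawn up after their values were seen. Afp (alpha-fetoprotein) had 1863 counts in control 1, 1955 in PEDF 1, 1061 in control 2 and 1160 in PEDF 2. Alb (albumin) had 241, 248, 136 and 163 counts, and Ttr (transthyretin) 90, 80, 42 and 44. In each of the 3 both libraries of experiment 1 were above both of experiment 2 relative to library size. Of the other 7, Serpina1a, Hnf4a, Foxa3 and Cps1 were also lower in experiment 2 with no overlap. Apoa1 had 7, 12, 13 and 8 counts and Apoa2 9, 5, 8 and 16, and both overlapped between experiments, as did Dlk1. Of the 10 genes 7 were lower in experiment 2 with no overlap in CPM and 0 were higher, where 18.4% of all genes were lower and 19.1% higher in this way. As the list was drawn up with these values in view, its count is no support for a direction. Their summed TPM was 467.7, 474.3, 402.2 and 430.3, most of it from Dlk1, which other fetal cells also express, and without Dlk1 it was 147.6, 139.3, 71.6 and 79.7. None of the 10 was at 0 in all libraries, and Hnf4a, a transcription factor that defines hepatocytes, had 20, 18, 10 and 6 counts. The part of these genes, or of the sex makeup, in the Krt8 difference was not tested.

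**Figure D4:**
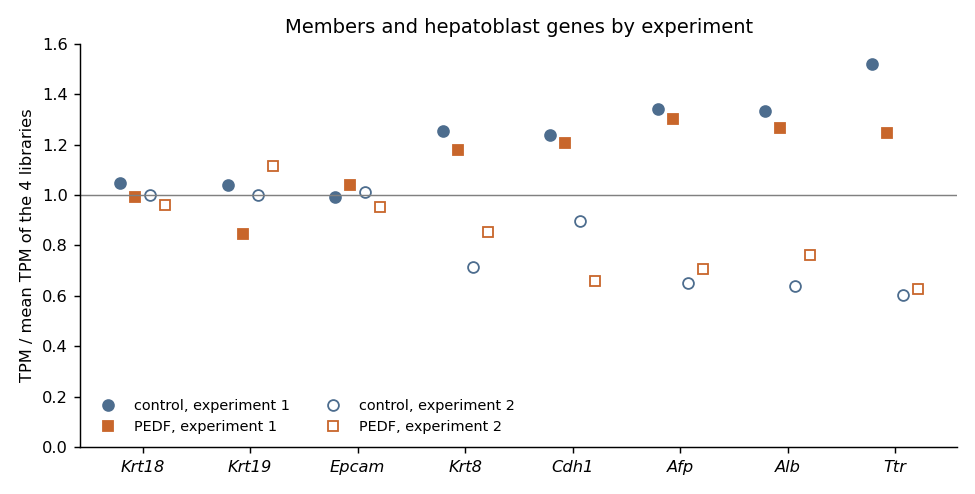
TPM of 5 of the epithelial genes and of Afp, Alb and Ttr in each library, divided by the mean of the gene over the 4 libraries (line at 1; Afp, Alb and Ttr are 3 of 10 hepatoblast genes read, of which Apoa1, Apoa2 and Dlk1 overlapped between experiments), with circles for control, squares for PEDF, filled for experiment 1 and open for experiment 2. Krt8, Cdh1, Afp, Alb and Ttr lie above 1 in experiment 1 and below 1 in experiment 2, whereas Krt18, Krt19 and Epcam lie on both sides of 1 in at least 1 experiment.

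The other genes of the same programs were read from the 5 epithelial lists. Leaving out the 10 genes, 65 were tested, and with PEDF edgeR called 0 of them (1 at an unadjusted p under 0.05), as did DESeq2 and limma. Their median log2 fold change was -0.07 against 0.00 over all genes tested, and 25 of the 65 were positive. With the experiment as a block 0 of the 65 were called, where 3.75% of all genes were. Between experiments 4 of the 75 tested list genes, Krt8 included, were called (5.33%, where 4.49% of all genes were called), 1 higher and 3 lower in experiment 2. None of the 4 was called in limma or without the treatment term, and DESeq2 gave none of them an adjusted p. Itga6, Cldn4 and Spint2 lost the call whichever library was left out, with adjusted p of 0.0806 to 0.999, 0.0597 to 0.999 and 0.159 to 0.912, and Krt8 lost it only without control 2. The higher one was Itga6, an integrin chain of basal keratinocytes, with a log2 fold change of 0.25 (SE 0.06, adjusted p = 0.00159). The lower ones were Krt8, the tight junction protein Cldn4, and Spint2, a membrane inhibitor of serine proteases. Cldn4 had 55, 81, 39 and 44 counts in the order used above, with a log2 fold change of -0.93 (SE 0.26, adjusted p = 0.0131), and Spint2 had 175, 158, 133 and 140 counts, with -0.52 (SE 0.16, adjusted p = 0.0271). In both genes the libraries of experiment 1 were the higher ones relative to library size.

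Within the simple keratins 6 of 7 genes were tested, and Krt18, Krt19 and Krt8 were the top 3 in mean TPM. Of 28 basal and stratified keratinocyte genes 19 were tested, led by Sfn (63.5 TPM), Perp (30.9 TPM) and Itga6 (27.0 TPM), which other cell types also express. Genes of this list differed widely in level. Krt10 and Krt1 form the keratin pair of the suprabasal epidermis, and Krt10 had 30, 47, 44 and 58 counts while Krt1 had 0, 4, 1 and 0. Krt13, a keratin of internal stratified epithelia, had 21, 14, 34 and 35 counts, Trp63, the master regulator of stratified epithelia, had 29, 27, 32 and 27, and Krt6b, Krt4, Dsc1 and Dsg1a had none. Of 42 cornified envelope and late keratinocyte genes 13 were tested and 20 had no count in any library, Flg (filaggrin), Klk5 and Klk7 among them. This list was led by Cdsn (corneodesmosin, 5.75 TPM), Sprr2k (4.61 TPM) and Sprr1a, while Tchh (trichohyalin) had 50, 46, 74 and 68 counts, Lor (loricrin) had 31, 48, 29 and 43 and Ivl (involucrin) 5, 1, 1 and 1.

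Of 30 adhesion and junction genes 27 were tested, led by Cd24a (125.6 TPM), Cdh3 (98.7 TPM) and Jup (53.9 TPM), all well above Cdh1 (2.53 TPM) and Epcam (1.31 TPM). Of 16 epithelial transcription and splicing factors 10 were tested, led by Klf5 (11.7 TPM), Tfap2a (3.11 TPM) and Esrp2 (2.41 TPM), and Grhl2, Esrp1 and Ovol2 had 1 count each over the 4 libraries. In contrast, the 7 transcription factors of the epithelial-mesenchymal transition were all tested, led by Twist1 (171.9 TPM), Snai1 (144.1 TPM) and Twist2 (61.2 TPM). Twist1 fell in experiment 2 with a log2 fold change of -0.25 (SE 0.06, edgeR adjusted p = 0.00107). It was 1 of the 7 called (14.3%, where 4.49% of all genes were called). Markers of the mesothelium, an epithelium-like lining that also carries simple keratins, summed to between 115.4 and 128.9 TPM. Most of this sum came from Pdpn (86.7 TPM), followed by Msln (7.64 TPM) and Nkain4 (5.96 TPM), so it is largely the level of 1 gene. Msln rose in experiment 2 with a log2 fold change of 0.52 (SE 0.17, edgeR adjusted p = 0.0412), the 1 call among the 10 mesothelium genes tested (10.0%). Of these 10 genes 5 were positive, and their median was -0.06. Smooth muscle genes, led by Acta2 (3008 TPM), Tagln (1597 TPM) and Myl9 (625.2 TPM), summed to between 6045 and 6375 TPM. Of these 8 genes Myh11 and Actg2 were called lower in experiment 2 (25.0%, where 4.49% of all genes were called). The 16 fibroblast genes were led by Col1a1, Vim and Fn1 (2024 TPM). Of these 16, Col1a1, Fn1 and Pdgfrb were called higher and Dcn and Lum lower in experiment 2 (31.2%, where 4.49% of all genes were called). In limma 0 genes of the whole table were called between experiments. These calls and those of Twist1, Msln, Myh11 and Actg2 were thus lost there.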

How the data were processed

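Poly(A) RNA purified from total RNA of 4 MEF cultures was sequenced. Per the labels and the study's methods, the authors used FastQC 0.11.7, Trimmomatic 0.38, HISAT2 2.1.0, SAMtools 1.9 and featureCounts 1.6.3 with build mm10, and deposited raw read counts per gene. The authors also deposited TPM, which keep no depth and were used for levels between genes. The 10 genes and the lists were chosen with earlier results of these data known. The genes named were the 10, the top 3 of each list by TPM, list genes past the threshold, Sprr genes and neighbours with counts, and the 3 genes nearest to Krt8 in pattern. The sex-linked and hepatoblast genes, Trp63, Krt1, Krt10, Krt13, Tchh, Krt6b, Krt4, Dsc1, Dsg1a, Flg, Klk5, Klk7, Lor, Ivl, Grhl2, Esrp1 and Ovol2 were named after their values were seen.

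Counts of 19384 genes with at least 10 counts in total were fitted in edgeR 4.0.16 (R 4.3.3, TMM factors, robust quasi-likelihood test) with Benjamini-Hochberg adjustment over all of them and a threshold of 0.05. PEDF was compared with control with no covariate, and experiment 2 with experiment 1 with treatment as a covariate. The deviations of same-numbered libraries correlated at r = 0.423 over 10722 genes, and the labels give each experiment its own embryos, so the experiment number pairs the libraries. Coordinates come from GENCODE M21 (GRCm38). Alternatives were RLE scaling, DESeq2 1.42.0, no filter, filterByExpr, the experiment block, removal of the length trend, limma 3.58.1 on log2(TPM + 1) and log2(TPM + 0.1), and leaving out each library. With 14722848 to 18144640 counts per library, the 3-count floor was 0.168 to 0.203 CPM.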

Additional observations from a re-analysis of the deposited data

Results flagged for a closer look

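For 4 genes the log2 ratio of PEDF to control had opposite signs in the 2 experiments, and this difference between experiments was not tested because each experiment has 1 library per treatment. For Krt8 the ratio of experiment 2 minus that of experiment 1 was 0.317 on the log2 scale, from -0.05 to 0.27. For Krt19 the difference was 0.427, from -0.26 to 0.17, and both the lowest and the highest Krt19 library was a PEDF library. For Epcam it was -0.187, on 15 to 18 counts per library. For Cdh1 it was -0.444, from a ratio of 0.0002 in experiment 1, which is level within counting error, to -0.44 in experiment 2.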

How the results depend on the processing

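With 2 libraries a group, the calls depended on the fit. For PEDF the count of genes called over the whole table was 1, and it was 3 in DESeq2, 106 with no filter, 0 with filterByExpr (1187 at an unadjusted p under 0.05), and 0 in limma with either pseudocount (959 and 926 unadjusted). With the replicate block it was 726, with the block in DESeq2 119, and with the block and the length trend removed 430. Leaving out 1 library gave 2 to 205 calls, 205 without control 1, 24 without PEDF 2, and 2 without control 2 or PEDF 1. Among the 5 epithelial lists the count was 0, and the block made it 1 through a gene that this contrast had chosen, which is no result. For experiment 2 against 1 the count of 870 became 102 in DESeq2, 11 without the treatment term and 0 in limma with either pseudocount (2371 and 2274 unadjusted), and 21 (without PEDF 1) to 480 (without PEDF 2) when 1 library was left out, with 61 without control 2 and 129 without control 1. Removing the length trend, an alternative chosen after seeing the data, gave 613. The 4 list calls became 0 in limma and without the treatment term, DESeq2 gave no adjusted p for any of the 4, and 0 (without control 2) to 1, Krt8, when 1 library was left out.

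Krt8 kept its lower level in experiment 2 in every fit run, from -0.83 to -0.56 on the log2 scale, with adjusted p from 4.59e-07 to 0.316. It lost its call in limma (-0.62, adjusted p = 0.286, and -0.64, adjusted p = 0.316), without the treatment term (-0.69, adjusted p = 0.0828) and without control 2 (-0.56, adjusted p = 0.084). DESeq2 gave it -0.70 (SE 0.23, unadjusted p = 0.00219) and no adjusted p, as it adjusted p for only 1310 genes.

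The PEDF fold changes that turned sign were not called in any fit. Without control 1, Krt18 was at 0.0093, Krt19 at 0.01 and Cdh1 at 0.09. Without control 2, Krt8 was at -0.30 and Krt14 at -0.0252. Without PEDF 1, Krt8 was at -0.21, Krt19 at 0.12, Epcam at -0.0858 and Sprr1a at -0.0454. Without PEDF 2, Krt18 was at 0.018 and Cdh1 at 0.24. Epcam was at -0.0602 with the replicate block and the length trend removed and at -0.0061 and -0.0105 in limma. When 1 library was left out, the PEDF range was -0.30 to 0.554 for Krt8, -0.104 to 0.018 for Krt18, -0.0252 to 0.586 for Krt14, -0.706 to 0.24 for Cdh1 and -0.0454 to 1.24 for Sprr1a. The range between experiments was -0.0123 to 0.25 for Krt19, -0.60 to 1.33 for Krtdap and -0.979 to 0.98 for Sprr2b. Between experiments, Krt19 was at -0.0123 without PEDF 1 and Krtdap at -0.60 without control 1. Sprr2b was at 0.0171 without the treatment term, 0.11 with the length trend removed, 0.0080 and 0.0135 in limma, and 0.98 without PEDF 2. Over the 10 genes, without the floor ratios of Krtdap and Sprr2b, 182 alternative values kept direction with no call seen to change, 21 turned sign and 4 lost the call. The 182 include DESeq2 fits that gave no adjusted p, where the call could not be judged. Krt5, Krtdap and Sprr2b gave no value where the filter removed them. The causes were not tested. With fewer than 100 counts in every library, 7 of the 10 genes allow only large changes to be seen.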
